A study of Mus musculus with 30 samples.

Results

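The complement, coagulation and plasma protein genes are 51 genes for proteins that the liver secretes into the blood, chosen by a named list and measured through the platform's gene symbols. Of these, 49 had a probe set assigned to a single symbol, out of 18193 genes measured that way, and C3 and Cpb2 were not analysed here. Each gene was read from its brightest probe set, and 10 of the 49 had more than 1. RNA came from fetal liver and fetal lung of CD-1 mice, an outbred stock, whose dams were gavaged with the potassium salt of perfluorooctane sulfonate (PFOS), a persistent fluorinated surfactant, at 0, 5 or 10 mg/kg/day from gestation day 1 to 17. All groups, the unexposed included, received the vehicle, 0.5% Tween 20, and tissues were taken on gestation day 18. Each array held RNA pooled from 3 fetuses of 1 litter, and 5 litters were measured per dose and tissue, 30 arrays in all. The exposed groups are called the low dose (5 mg/kg/day) and the high dose (10 mg/kg/day). Labels do not state whether a lung and a liver array with the same litter number came from the same dam.

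Complement is a cascade of plasma proteases and binding proteins that marks and lyses microbes. Mannose-binding lectins and their associated proteases start one branch, the terminal components form the membrane pore, and regulators such as factor I and C4b-binding protein switch the cascade off. Clotting factors, several of which need vitamin K for their maturation, form a second protease cascade that ends in fibrin, with inhibitors and plasminogen working against it. Hepatocytes make most of these proteins, together with the carrier and acute phase proteins, whose output changes during inflammation. In whole tissue, fewer cells of a type and less RNA per cell cannot be told apart.

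Levels are log2 values, so a difference of 1 is a doubling, and levels of different genes come from different probes and are not compared with each other. A gene was tested in a tissue when at least 5 of its 15 arrays had the probe set above the 40th percentile. All 49 genes were tested in liver and 40 in lung, where Mbl2, C8a, C9, C4bp, F9, Proz, F11, Orm1 and Saa4 were too dim. Calls required an adjusted p under 0.05 (limma, Benjamini-Hochberg over all genes tested). Liver arrays of 1 dose correlated with each other at 0.990 to 0.993 over all probe sets. On the lung side, litter 1 at 0 mg/kg/day and litter 1 at the low dose stood apart in liver genes, and lung results are given with and without them.

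In fetal liver at the high dose, 12 of the 49 genes fell and none rose, while 28 had an unadjusted p under 0.05. Over all 13269 genes tested, 5.22% were called lower and 5.3% higher in the same comparison, and 3178 had an unadjusted p under 0.05. Changes were negative for 45 of the 49 genes, against 56.5% of all genes, with a median of -0.18 against -0.02. At the low dose, 4 genes fell and 1 rose, where 1.81% of all genes were called lower and 4.26% higher. Changes at the low dose were negative for 41 genes, with a median of -0.09 against -0.01 over all genes. The 4 genes lower at the low dose (Mbl2, Cfi, Klkb1 and Itih4) were also lower at the high dose. Both comparisons use the same 5 unexposed litters.

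Between the doses no gene of the set was called by limma, against 0.00754% of all genes. An unadjusted p under 0.05 was found for 11 of the 49 genes and for 1035 of all 13269. Mean levels of 39 of the 49 genes stepped down from no exposure to the low dose and again to the high dose. All 12 genes called at the high dose were among them. The share of all genes that stepped down in this way was not counted. The 12 called genes were selected by a low mean at the high dose against the same unexposed litters. Their means in between at the low dose are thus no separate test, and a trend over dose was not tested. In 12 of the 49 genes all 5 litters at the high dose lay below all 5 unexposed litters, which 4.41% of all genes did. These 12 were the called genes other than C8b and Proz, with C4bp and F12 in addition.

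**Figure D1:**
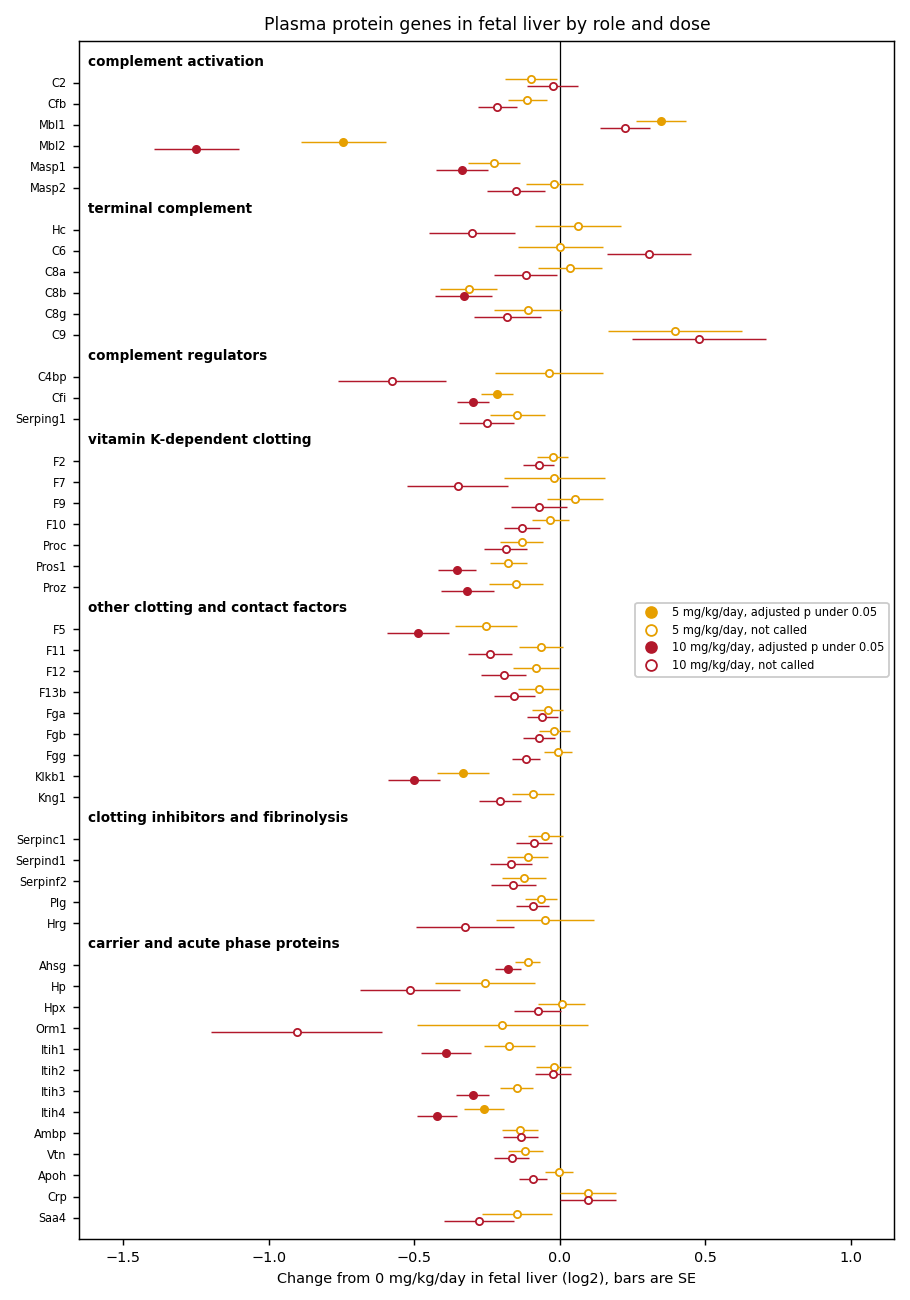
Change from 0 mg/kg/day in fetal liver (log2, x axis) of the 49 genes, grouped by role, with standard errors as bars; filled points have a limma adjusted p under 0.05. Most points lie left of 0, 12 are filled at 10 mg/kg/day, and Mbl2 lies farthest left while Mbl1, C9 and Crp lie on the right at both doses.

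Both mannose-binding lectin genes, which encode the sugar-binding proteins of the lectin branch, had called changes in opposite directions. Their sequences just upstream of the start are shown first because these 2 related genes hold a common stretch there. The windows are the 250 bases before each annotated start, from RefSeq on GRCm38.p6, both on the plus strand, Mbl2 at chr19:30232678-30232927 and Mbl1 at chr14:41151206-41151455. Capitals mark the best ungapped match between both windows, 39 bases of which 34 are identical (87.2%).
Mbl2: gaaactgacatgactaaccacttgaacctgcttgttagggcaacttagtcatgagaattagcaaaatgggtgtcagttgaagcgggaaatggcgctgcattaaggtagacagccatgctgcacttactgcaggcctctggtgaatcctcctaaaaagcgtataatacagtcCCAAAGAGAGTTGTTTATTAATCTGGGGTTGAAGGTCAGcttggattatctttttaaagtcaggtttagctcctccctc
Mbl1: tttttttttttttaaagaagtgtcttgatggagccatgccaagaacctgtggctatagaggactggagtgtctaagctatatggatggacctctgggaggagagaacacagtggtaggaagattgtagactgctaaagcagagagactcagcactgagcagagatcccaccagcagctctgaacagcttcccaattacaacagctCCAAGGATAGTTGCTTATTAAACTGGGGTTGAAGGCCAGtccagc
The longest run of identical bases in it, CTGGGGTTGAAGG, is 13 bases long and occurs on either strand in 3 of the 32851 listed promoter windows, those of Mbl1, Mbl2 and Slc25a53. In Mbl2 the stretch covers bases 79 to 41 before the start and in Mbl1 bases 45 to 7. A shared stretch is a description of the sequence and says nothing of how either gene is regulated here.

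Levels of Mbl2 in the 5 unexposed livers were 10.14, 10.07, 10.34, 10.10 and 9.65. At the low dose they were 8.71, 9.44, 9.46, 9.47 and 9.51, and at the high dose 8.88, 8.79, 8.66, 8.73 and 8.99. Every exposed litter was below every unexposed litter at both doses. Mbl2 fell by 0.74 (SE 0.15, adjusted p = 0.00518) at the low dose and by 1.25 (SE 0.15, adjusted p = 2.9e-05) at the high dose, to 42.1% of the unexposed mean at the higher dose. With both tissues in 1 fit, where the lung spread enters, the adjusted p was 0.407 and 0.0849.

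Mbl1 stood at 9.19, 9.20, 9.24, 9.36 and 8.98 in unexposed livers. The litters at the low dose measured 9.41, 9.55, 9.61, 9.55 and 9.58, all above the unexposed ones, and those at the high dose 9.58, 9.34, 9.55, 9.48 and 9.15, overlapping them. It rose by 0.35 at the low dose (SE 0.09, adjusted p = 0.0216) and had a change of 0.22 at the high dose (adjusted p = 0.112). The call at the low dose was lost without litter 3 or 5 of that dose or without unexposed litter 5 (adjusted p = 0.0518 to 0.0545), and without liver litter 5 at the high dose the change at the high dose was called (adjusted p = 0.0294).

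Masp1, a protease that binds these lectins, measured 9.53, 9.79, 9.47, 9.39 and 9.51 in unexposed livers and 9.33, 9.25, 9.05, 9.09 and 9.28 at the high dose, with no overlap. It fell by 0.34 at the high dose (SE 0.09, adjusted p = 0.0231). Leaving out litter 3 or 4 at the high dose or unexposed litter 2 lost the call (adjusted p = 0.0563 to 0.065). Its partner protease Masp2 and C2, the serine protease of the C3 convertase, were not called (-0.15 and -0.02 at the high dose). Cfb, the matching protease of the alternative branch, had a change of -0.21 (adjusted p = 0.0533).

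Of the 6 terminal components, which build the membrane attack complex, C8b alone was called lower at the high dose, against 5.22% of all genes. None of the 6 was called at the low dose. C8b encodes the beta chain of C8 and measured 10.37, 10.41, 10.21, 10.48 and 10.07 in unexposed livers against 9.88, 10.07, 10.11, 9.70 and 10.11 at the high dose, overlapping at its lowest unexposed litter. It fell by 0.33 at the high dose (SE 0.10, adjusted p = 0.0403). Without litter 1 or 4 at the high dose, or unexposed litter 1, 2 or 4, the adjusted p was 0.0816 to 0.1. The call was also lost with no filter, the 2 groups fitted alone or both tissues in 1 fit (adjusted p up to 0.269). The genes of the other C8 chains, C8a and C8g, had changes of -0.12 and -0.18, and C8a is the neighbour of C8b in RefSeq gene order.

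Positive changes appeared among the pore components as well. C9, which forms the ring of the pore, measured 7.48, 7.85, 6.71, 6.62 and 7.51 in unexposed livers and 7.71, 8.09, 7.59, 7.10 and 8.08 at the high dose. Its difference of 0.48 was not called (SE 0.23, adjusted p = 0.217), and the groups overlapped widely. C6 had a change of 0.31 (adjusted p = 0.212) and Hc, the mouse gene of C5, one of -0.30 (adjusted p = 0.224).

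Among the regulators, Cfi fell at both doses. Cfi encodes factor I, the protease that inactivates C3b and C4b, and measured 12.21, 12.16, 12.23, 12.17 and 12.11 without PFOS. Its litters at the low dose stood at 11.90, 11.91, 12.03, 11.93 and 12.03 and those at the high dose at 12.01, 11.87, 11.87, 11.76 and 11.88, all below the unexposed range. The fall was 0.21 at the low dose (SE 0.06, adjusted p = 0.0298) and 0.30 at the high dose (SE 0.06, adjusted p = 0.00227). At the low dose the call was lost without litter 1, 2 or 4 of that dose or unexposed litter 1, 2, 3 or 4 (adjusted p = 0.0522 to 0.0715), and with no filter on dim probe sets. With both tissues in 1 fit it was lost at both doses (adjusted p = 0.742 and 0.576).

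C4bp encodes the C4b-binding protein, a cofactor of factor I. Unexposed livers measured 7.26, 7.28, 7.16, 7.16 and 7.29, livers at the low dose 6.26, 7.69, 7.48, 7.20 and 7.32, and livers at the high dose 6.74, 6.65, 6.44, 6.78 and 6.66. The unexposed and high-dose groups did not overlap, and litter 1 at the low dose was below both. The change of -0.57 at the high dose was not called when all 3 doses shared the spread (SE 0.19, adjusted p = 0.0601) and was called when the unexposed and high-dose groups were fitted alone (adjusted p = 0.000368) or with the stricter filter on dim probe sets (adjusted p = 0.0455). Serping1, the C1 inhibitor, had a change of -0.25 (adjusted p = 0.107).

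**Figure D2:**
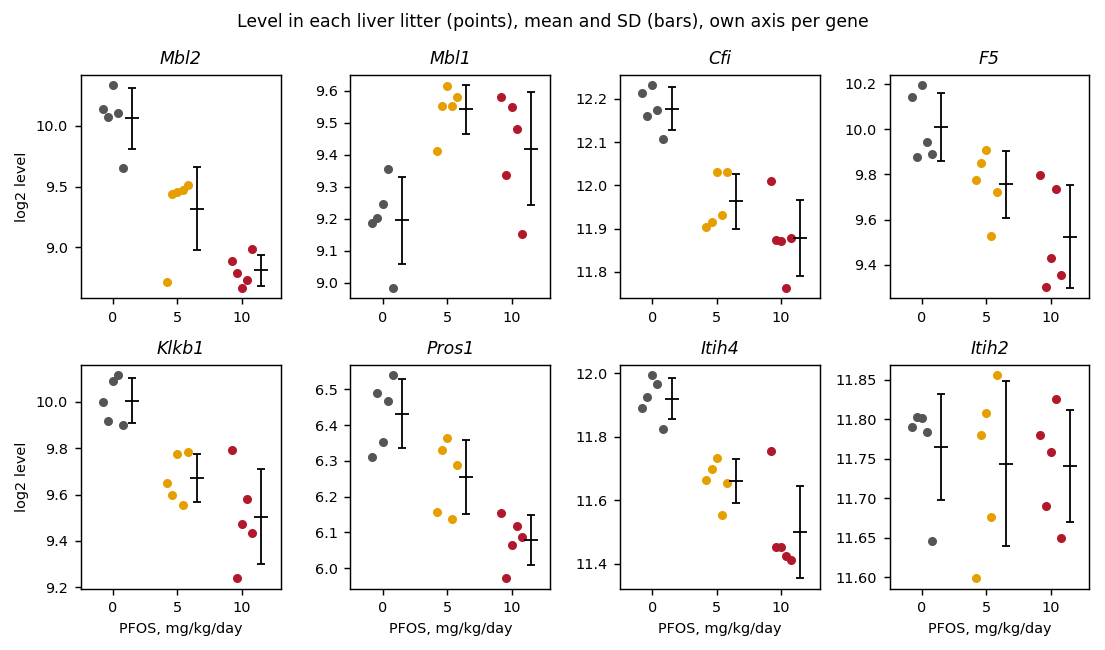
Log2 level in each fetal liver litter (points) at 0, 5 and 10 mg/kg/day PFOS for 8 genes, with the mean and SD of 5 litters beside them and a separate y axis per gene. Mean levels of Mbl2, Cfi, Klkb1 and Itih4 step down at each dose, while their points at 5 and 10 mg/kg/day overlap. Points of Mbl1 are higher at 5 mg/kg/day, and those of Itih2 overlap at all doses.

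Of the 7 vitamin K-dependent genes, 2 were called lower at the high dose, against 5.22% of all genes. All 7 changes at that dose were negative, against 56.5% of all genes. Both called genes, Pros1 and Proz, encode proteins that restrain clotting. Pros1 encodes protein S, the cofactor of activated protein C. Its levels were 6.31, 6.49, 6.35, 6.47 and 6.54 in unexposed livers, 6.16, 6.33, 6.36, 6.14 and 6.29 at the low dose, and 6.15, 5.97, 6.06, 6.12 and 6.09 at the high dose. The highest litter at the high dose was below the lowest unexposed litter, and the fall was 0.35 (SE 0.06, adjusted p = 0.00196).

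Proz encodes protein Z, the cofactor of an inhibitor of factor Xa. It measured 9.35, 9.50, 9.60, 9.73 and 9.67 without PFOS and 9.38, 9.0, 9.27, 9.38 and 9.22 at the high dose, overlapping at unexposed litter 1. The fall of 0.32 (SE 0.09, adjusted p = 0.0373) lost its call without litter 2, 3 or 5 at the high dose or unexposed litter 2, 3, 4 or 5 (adjusted p = 0.0536 to 0.0935). The procoagulant genes of the group were not called: changes at the high dose were -0.07 for F2 (prothrombin), -0.35 for F7, -0.07 for F9 and -0.13 for F10. Proc, which encodes protein C, had a change of -0.19 and was not called (adjusted p = 0.131). The F7 change was about as large as that of Pros1. Whether genes that restrain and genes that promote clotting differed was not tested. F7, F10 and Proz follow each other in RefSeq gene order.

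Of the 9 other clotting and contact factor genes, F5 and Klkb1 fell at the high dose, where 5.22% of all genes were called lower. All 9 changes at that dose were negative, against 56.5% of all genes. F5 encodes factor V, the cofactor of factor Xa, and measured 10.14, 9.88, 10.20, 9.94 and 9.89 in unexposed livers. Livers at the low dose stood at 9.78, 9.85, 9.91, 9.53 and 9.72 and livers at the high dose at 9.80, 9.30, 9.43, 9.73 and 9.35. Litters at the high dose were all below the unexposed ones, and those at the low dose overlapped them. The fall at the high dose was 0.49 (SE 0.11, adjusted p = 0.00728), to 71.4% of the unexposed mean.

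Klkb1 encodes plasma prekallikrein, the protease that releases bradykinin from kininogen. Its unexposed levels were 10.00, 9.92, 10.09, 10.12 and 9.90. At the low dose they were 9.65, 9.60, 9.77, 9.56 and 9.79, and at the high dose 9.79, 9.24, 9.47, 9.58 and 9.44. No exposed litter reached the unexposed range, and Klkb1 fell by 0.33 (SE 0.09, adjusted p = 0.0358) and by 0.50 (SE 0.09, adjusted p = 0.00159), the latter to 70.7% of the unexposed mean. Its call at the high dose held under every setting tried, while that at the low dose was lost without litter 1, 2 or 4 of that dose or unexposed litter 1, 3 or 4 (adjusted p = 0.0668 to 0.0832).

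F11, the neighbour of Klkb1 and its closest relative among the clotting factors, measured 9.82 to 10.22 in unexposed livers and 9.72 to 9.95 at the high dose, with a change of -0.24 (adjusted p = 0.0555). F12, the Hageman factor that activates prekallikrein, ran from 10.00 to 10.24 without PFOS and from 9.81 to 9.96 at the high dose, with no overlap, and its change of -0.19 was not called (adjusted p = 0.139). Kng1, the kininogen substrate, had a change of -0.20 (adjusted p = 0.087) and F13b, a chain of the fibrin-crosslinking factor, one of -0.16 (adjusted p = 0.186). The 3 fibrinogen chain genes Fga, Fgb and Fgg, which are neighbours, had changes of -0.06, -0.07 and -0.12, and none was called. Their unexposed liver means, 13.07, 12.94 and 13.27, are near the top of the arrays' range, where a signal can flatten.

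None of the 5 genes grouped as clotting inhibitors and fibrinolysis was called at either dose (limma), and 1 of 5 had an unadjusted p under 0.05 at the high dose. Of all 13269 genes, 5.22% were called lower and 5.3% higher at that dose, and 3178 had an unadjusted p under 0.05. Pros1 and Proz, also for proteins that restrain clotting, are counted above with the vitamin K-dependent genes. Antithrombin (Serpinc1) had a change of -0.09, heparin cofactor II (Serpind1) of -0.17, antiplasmin (Serpinf2) of -0.16 and plasminogen (Plg) of -0.09. Hrg, the histidine-rich glycoprotein that binds heparin and plasminogen, had the group's largest change. Its levels were 11.42, 11.28, 11.80, 11.56 and 11.23 without PFOS and 11.46, 10.58, 11.21, 11.56 and 10.86 at the high dose, and the difference of -0.33 was within that spread (SE 0.17, adjusted p = 0.255).

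Of the 13 carrier and acute phase genes, 4 fell at the high dose, Itih1, Itih3, Itih4 and Ahsg, where 5.22% of all genes were called lower. The Itih genes encode heavy chain proteins of the inter-alpha-trypsin inhibitor family. Itih4, Itih3 and Itih1 follow each other in RefSeq gene order, while Itih2 lies elsewhere. The 250 bases before the Itih4 start, the gene of this cluster with the smallest adjusted p, are chr14:30886226-30886475 on the plus strand of GRCm38.p6 (RefSeq). Capitals mark a match to the STAT pattern TTCNNNGAA at bases 51 to 43 before the start.
Itih4: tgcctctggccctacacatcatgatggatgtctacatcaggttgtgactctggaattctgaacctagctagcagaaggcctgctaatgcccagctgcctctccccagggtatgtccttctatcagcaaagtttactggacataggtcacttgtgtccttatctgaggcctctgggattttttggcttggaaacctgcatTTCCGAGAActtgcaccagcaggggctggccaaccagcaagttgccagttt
Itih4 levels were 11.89, 11.92, 11.99, 11.96 and 11.83 without PFOS, 11.66, 11.70, 11.73, 11.55 and 11.65 at the low dose, and 11.76, 11.45, 11.45, 11.42 and 11.41 at the high dose. Both exposed groups lay below the unexposed litters, with litter 1 at the high dose above the other litters of its dose. Itih4 fell by 0.26 (SE 0.07, adjusted p = 0.033) and by 0.42 (SE 0.07, adjusted p = 0.000735). The call at the low dose was lost without litter 1, 2, 4 or 5 of that dose or unexposed litter 1, 2, 3 or 4 (adjusted p = 0.052 to 0.0809).

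Itih3 measured 12.48, 12.44, 12.59, 12.52 and 12.33 in unexposed livers and 12.26, 12.11, 12.16, 12.21 and 12.13 at the high dose. Itih1 measured 10.21, 10.35, 10.49, 10.24 and 10.29 against 10.12, 9.74, 9.96, 9.95 and 9.86. Neither overlapped between these doses. Itih3 fell by 0.30 (SE 0.06, adjusted p = 0.00219) and Itih1 by 0.39 (SE 0.09, adjusted p = 0.00793). Itih2, the heavy chain gene outside the cluster, ran from 11.65 to 11.80 without PFOS and from 11.65 to 11.83 at the high dose, with a change of -0.02 (SE 0.06, adjusted p = 0.865). Whether the Itih2 change differs from those of the cluster was not tested. Ambp, which encodes bikunin, the light chain of the inter-alpha-trypsin inhibitor family, had a change of -0.13 (adjusted p = 0.185).

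Ahsg, which encodes fetuin-A, an abundant fetal plasma protein that inhibits mineralisation, fell by 0.18 at the high dose (SE 0.04, adjusted p = 0.0177). The call was lost with the unexposed and high-dose groups fitted alone (adjusted p = 0.0556) or both tissues in 1 fit (0.788). Unexposed livers measured 13.09, 13.08, 13.09, 13.05 and 12.98 and livers at the high dose 12.91, 12.86, 12.87, 12.88 and 12.89, a small difference with no overlap. These levels are near the top of the liver arrays' range, whose highest values were 13.82 to 13.92. Of the 49 genes, 14 had an unexposed liver mean above 12. Of these, 3 (Cfi, Ahsg and Itih3) were called lower at the high dose, against 5.22% of all genes.

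Orm1, the acute phase protein orosomucoid, had the widest spread. It measured 4.59, 5.36, 6.67, 5.90 and 6.20 without PFOS and 4.95, 4.69, 4.33, 5.29 and 4.95 at the high dose, with unexposed litter 1 inside the exposed range. The change of -0.90 was not called (SE 0.29, adjusted p = 0.0613) and was called without that litter (adjusted p = 0.00417) or with the stricter filter (adjusted p = 0.0471). Orm1 has near-identical copies whose RNA its probe set may share. Haptoglobin (Hp), which binds free haemoglobin, measured 11.79 to 12.36 without PFOS and 11.06 to 11.98 at the high dose, a change of -0.51 (adjusted p = 0.0686). The other acute phase and carrier genes were not called: Hpx (hemopexin) had a change of -0.08, Vtn (vitronectin) of -0.16, Apoh of -0.09, Saa4 of -0.28 and Crp of 0.10.

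Markers of other cells in the liver were read beside these falls. Of all genes tested there, 5.22% were called lower and 5.3% higher at the high dose, and 1.81% and 4.26% at the low dose. The 9 hepatocyte markers had mean levels of 11.64 to 11.92 over the unexposed litters and 11.55 to 11.97 at the high dose. Of the 9, 1 was called, Apoa1 (-0.17). Their median change at the high dose was -0.14, with 6 of 9 negative. The median was -0.18 for the 49 genes of the set and -0.02 over all genes. Albumin (Alb) had a change of 0.00 and Hnf4a, a hepatocyte transcription factor, of -0.16, neither called. Granulocyte markers ran from 11.04 to 11.24 without PFOS and from 10.64 to 11 at the high dose, with 2 of 6 called lower (Elane and Prtn3). Of 6 markers in each list, 1 macrophage gene (Adgre1), 1 stellate gene (Dcn) and 1 endothelial gene (Stab2) were called lower at the high dose, and none of 4 biliary markers. Erythroid markers ran from 10.18 to 10.53 without PFOS, from 9.89 to 10.11 at the low dose, where 2 of 4 were called lower, and from 9.96 to 10.42 at the high dose. Fabp2 was the 1 of 4 intestine markers called higher, at both doses. Median changes at the high dose were -0.35 (granulocyte), -0.22 (macrophage), -0.21 (endothelial, stellate and erythroid), -0.24 (biliary) and 0.10 (intestine). All 6 granulocyte, macrophage and endothelial markers had negative changes, against 56.5% of all genes. So had 5 of 6 stellate, 3 of 4 erythroid, 3 of 4 biliary and 1 of 4 intestine markers. Whether the set differed from these lists was not tested.

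Of 6 stomach and pancreas markers, none was called at the low dose and 1 was called lower at the high dose, Cym, a stomach protease gene. Cym measured 11.27, 9.50 and 8.20 in unexposed liver litters 2, 3 and 5, against 5.05 and 5.28 in litters 1 and 4 and at most 5.60 in the exposed livers. Mean levels of the 6 stomach and pancreas markers ran from 4.98 to 6.56 without PFOS and from 4.82 to 5.40 at the high dose. Without litters 2, 3 and 5, which leaves 2 unexposed livers, Mbl2, Cfi, Klkb1, Itih3 and Itih4 were still called lower at the high dose. Calls were lost for the other 7, with changes about as large for Pros1 (-0.31, adjusted p = 0.0731), F5 (-0.52, 0.0668), Ahsg (-0.19, 0.13), C8b (-0.45) and Proz (-0.29, 0.286), and smaller for Itih1 (-0.30, 0.201) and Masp1 (-0.26, 0.258). Mbl2 was then the 1 gene called lower at the low dose. The part of these other tissues and cells in the falls was not tested.

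Liver against lung gave the tissue of each gene without PFOS. Of the 49 genes, 47 were higher in liver and 2 in lung (limma), against 42.6% and 40.4% of all genes. The median difference was 5.24, in which genes too dim in lung enter at their background reading. Pros1 was higher in lung, at 7.66 to 7.87 against 6.31 to 6.54 in liver, by 1.37 (SE 0.06, adjusted p = 5.59e-18). C6, a terminal component, was also higher in lung, at 6.93 to 7.73 against 5.00 to 5.64, by 1.88 (SE 0.18, adjusted p = 1.19e-10). Levels of Hc (0.52), Serping1 (0.96), Hp (1.68) and C2 (1.88) differed least in liver's favour, and both counts were unchanged without the lung arrays that stood apart.

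**Figure D3:**
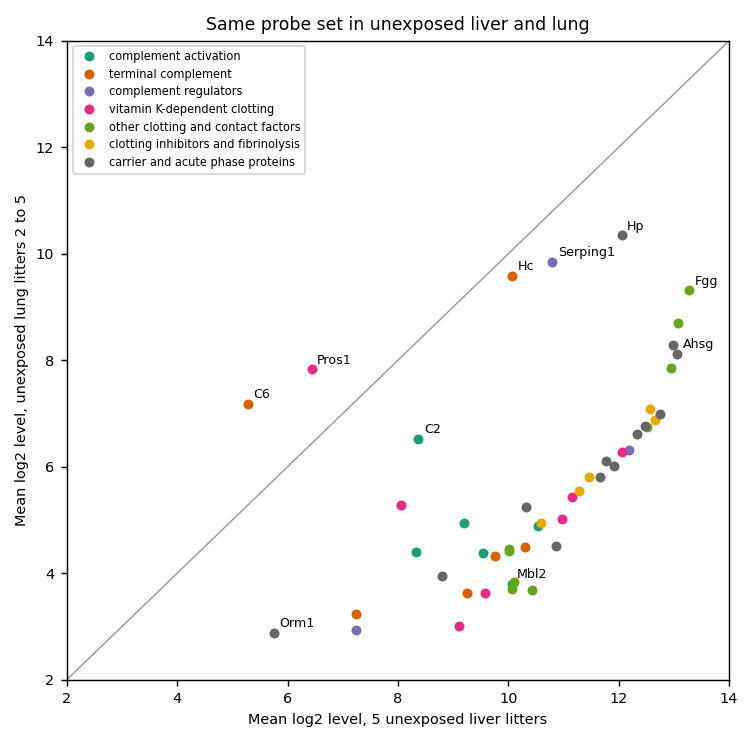
Mean log2 level in 5 unexposed livers (x axis) against unexposed lung litters 2 to 5 (y axis) for the 49 genes, coloured by role, with the line of equal level. Pros1 and C6 lie above the line, Hc, Serping1 and Hp closest below it with C2, and the other points lie farther under it.

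In lung, no gene of the set was called at either dose, or between them (limma). Among all 12897 genes tested, 0.0155% were called at the low dose, 0.0543% at the high dose and 0% between them. Of all these genes, 596, 891 and 296 had an unadjusted p under 0.05 in the same comparisons. In the set, 1 of the 40 tested had one at each dose against the unexposed group, and none between the doses. C2 was that gene at both doses, with changes of 0.20 (adjusted p = 0.978) and 0.15 (adjusted p = 0.703).

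Direction in lung turned on the arrays that stood apart. At the high dose, 25 of 40 changes were negative with all arrays and 13 of 40 without unexposed litter 1, the only one of them in that comparison. At the low dose, 7 were negative with all arrays, 2 without unexposed litter 1, 27 without low-dose litter 1 and 11 without both. Hpx measured 9.80 in litter 1 at 0 mg/kg/day and 9.68 in litter 1 at the low dose, while the 13 other lung arrays ran from 5.19 to 6.54. Its change at the high dose was -0.53 with all arrays (SE 0.79) and 0.27 without unexposed litter 1. Itih4 measured 9.36 and 9.06 on these arrays against 5.65 to 6.62, with changes of -0.54 and 0.13. The largest other changes at the high dose, -0.60 for Ahsg and -0.49 for Itih1, were -0.34 and -0.31 without it.

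These 2 arrays were noticed from such values. Of the 49 genes, 28 were higher on both than on each of the 13 others, which held for 326 of all 18193 genes (1.79%), and the other 21 were not. Mbl2 measured 6.91 and 6.37 there against 3.22 to 4.08, C4bp 5.63 and 5.54 against 2.62 to 3.83, and F5 6.07 and 6.16 against 3.99 to 4.79. Orm1 measured 6.57 and 5.85 against 2.48 to 3.50, which is within its range in unexposed fetal liver (4.59 to 6.67). The fibrinogen genes Fga (8.89 and 9.58 against 7.37 to 9.78), Fgb and Fgg were inside the range of the others, as were Itih2, Pros1 and C6. Hepatocyte markers differed among themselves: Alb measured 13.11 and 13.17 against 11.22 to 12.52, and Afp 8.29 and 9.63 against 9.91 to 11.74. Serpina6, the corticosteroid-binding globulin and no member of the set, measured 10.94 and 10.26 against 3.12 to 5.38, above its unexposed liver mean of 8.32. The source of this RNA was not tested.

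**Figure D4:**
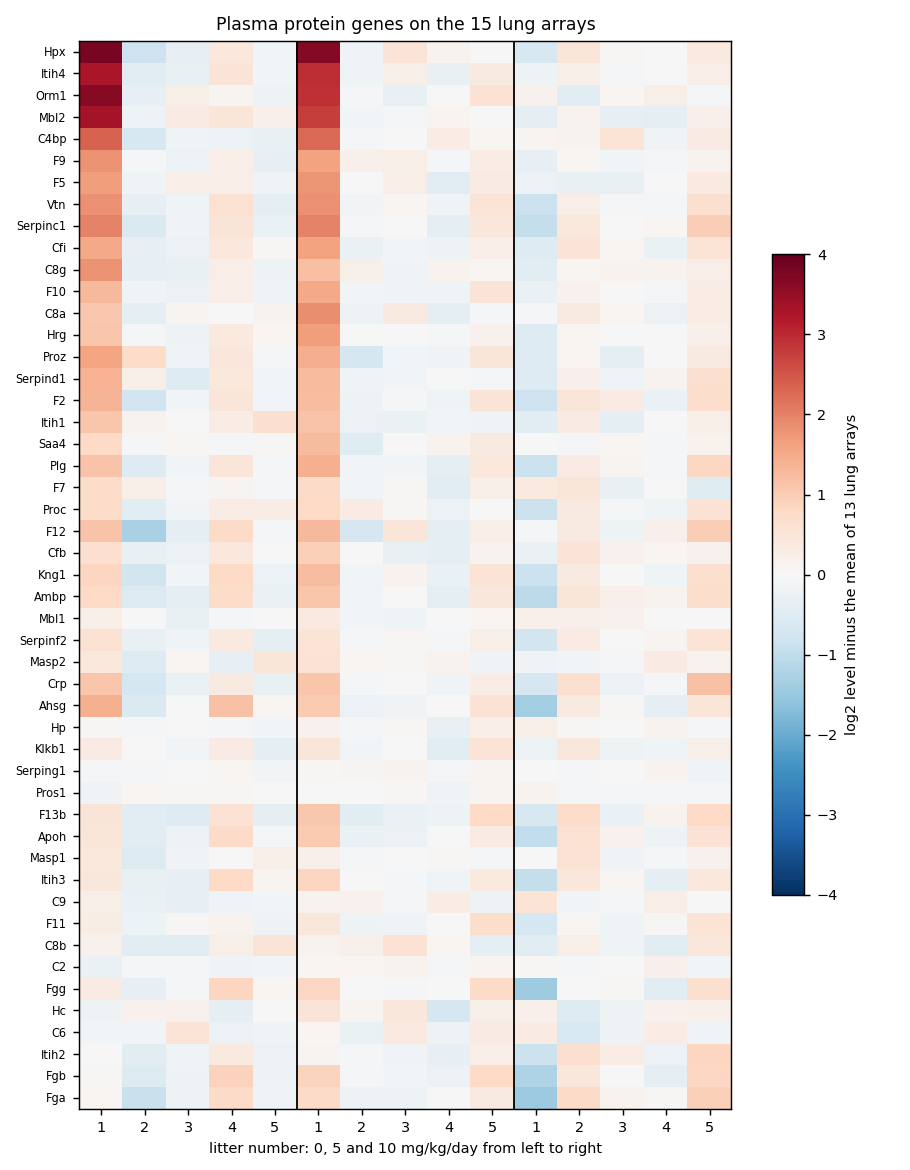
Log2 level of 49 genes on the 15 lung arrays minus the mean of the 13 arrays other than litter 1 at 0 and at 5 mg/kg/day (colour), with genes ordered by how far these 2 arrays exceed the others. Both columns are red for the upper rows, led by Hpx and Itih4, and pale for Pros1, Hp and C6, while litter 1 at 10 mg/kg/day is blue in many rows.

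On the 13 other lung arrays, levels of the set were set against the mean level of the 9 hepatocyte markers, which ran from 7.08 to 8.20. The Pearson correlation was positive with an unadjusted permutation p under 0.05 for 30 of 49 genes and negative for none, against 4.59% and 2.85% of all 18184 genes other than the markers. With p-values adjusted over all these genes, 16 of 49 were called positive and none negative, against 0.143% and 0% of all. The relation was closest for Fga (r = 0.96, permutation p = 2e-05, rho = 0.85, permutation p = 0.00044) and F2 (r = 0.94, permutation p = 2e-05, rho = 0.84, permutation p = 0.00057). Genes with an unadjusted p above 0.05 included those whose lung level lay nearest to or above that of liver: Pros1 (r = -0.38, permutation p = 0.202), C6 (r = -0.36, permutation p = 0.234), Hc (r = -0.29, permutation p = 0.345), C2 (r = -0.14, permutation p = 0.648), Hp (r = -0.07, permutation p = 0.829) and Serping1 (r = 0.09, permutation p = 0.758). Other genes, with lung levels farther below those of liver, were above 0.05 as well. With values centred on each dose, 18 were called positive, against 0.258% of all genes. With all 15 lung arrays the Fga correlation was 0.75 (permutation p = 0.00155). All these genes and markers were read from the same arrays.

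Lung levels of the genes with a high signal in unexposed lung overlapped between doses. Hp ran from 10.29 to 10.46 without PFOS and from 10.31 to 10.64 at the high dose, Serping1 from 9.76 to 9.94 and from 9.75 to 10.01, and Hc from 9.24 to 9.77 and from 9.09 to 9.81. Fgg, which followed the hepatocyte markers (r = 0.83, permutation p = 0.00041), ran from 8.84 to 10.05 and from 7.77 to 9.83. Their changes at the high dose were 0.10, 0.01, 0.03 and -0.41.

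Whether liver and lung responded differently was tested on the difference of their changes. At the low dose no gene of the set was called (limma), against 2.11% of all genes. An unadjusted p under 0.05 was found for 3 of 40 and for 1458 of all 12310 genes. At the high dose 1 of 40 was called, against 4.06% of all genes. Pros1 had a liver change of -0.35 and a lung change of -0.03, and the difference was -0.32 (SE 0.09, adjusted p = 0.0313). Lung levels of Pros1 ran from 7.66 to 7.87 without PFOS and from 7.72 to 7.93 at the high dose. The call was lost without both lung arrays that stood apart (adjusted p = 0.0795) and without any of 8 single litters (adjusted p = 0.0514 to 0.0709), which were unexposed liver litters 2, 4 and 5, liver litters 2 and 3 at the high dose, unexposed lung litters 1 and 5 and lung litter 1 at the high dose.

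Other genes of the same systems were read from 3 further lists. Of 47 other complement, clotting and plasma protein genes tested in liver, 3 rose and 1 fell at the low dose, against 4.26% and 1.81% of all genes, and 4 rose and 9 fell at the high dose, against 5.3% and 5.22%. The low-dose counts are near those shares. At the high dose 39 of these 47 changes were negative, against 56.5% of all genes, with a median of -0.19 against -0.02. The largest rise was that of Serpina7, which encodes thyroxine-binding globulin, a thyroid hormone carrier. Its levels were 7.43, 7.36, 8.49, 8.28 and 7.78 without PFOS, 9.01, 9.62, 9.49, 9.10 and 9.32 at the low dose, and 9.74, 9.43, 9.64, 10.02 and 9.80 at the high dose. Neither exposed group overlapped the unexposed one, and Serpina7 was 2.71-fold (adjusted p = 0.000253) and 3.62-fold higher (adjusted p = 1.22e-05).

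Cd46 and Cr1l, membrane-bound regulators that act as cofactors of factor I, rose, while Cfi fell. Cd46, the membrane cofactor protein, ran from 5.31 to 5.74 without PFOS, from 5.64 to 6.23 at the low dose and from 6.18 to 6.46 at the high dose. It rose by 0.38 (adjusted p = 0.0434) and by 0.85 (adjusted p = 5.32e-05). Cr1l, its neighbour in RefSeq gene order and a rodent regulator of C3 cleavage, ran from 8.45 to 8.60 without PFOS, from 8.73 to 9.07 at the low dose and from 9.08 to 9.19 at the high dose. It rose by 0.42 (adjusted p = 0.00104) and by 0.60 (adjusted p = 2.06e-05), and with its probe sets averaged the call at the low dose was lost (adjusted p = 0.231). The Cd46 call at the low dose was lost without 7 single litters (adjusted p = 0.0578 to 0.11): litters 2, 3, 4 and 5 of that dose and unexposed litters 1, 2 and 4. At the high dose the liver change exceeded the lung change for Cd46 by 0.73 (adjusted p = 0.000306) and for Cr1l by 0.48 (adjusted p = 0.006).

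Clu, which encodes clusterin, an inhibitor of the terminal complex, rose by 0.38 at the high dose (adjusted p = 0.0279), a call lost without litter 1 or 4 of that dose or unexposed litter 1, 2 or 5 (adjusted p = 0.059 to 0.072). Serpina1c, an antitrypsin gene with near-identical copies that its probe set may not separate, fell by 0.31 (adjusted p = 0.00421) and by 0.50 (adjusted p = 3.22e-05), with 13.14 to 13.24 without PFOS and 12.56 to 12.81 at the high dose. Lrg1, an acute phase glycoprotein, fell by 0.84 at the high dose (adjusted p = 0.0125), with 8.94 to 9.49 without PFOS and 7.78 to 8.89 at the high dose. Mug1, a murinoglobulin protease inhibitor, fell by 1.57 (adjusted p = 0.0364) and Azgp1, the zinc-alpha-2-glycoprotein, by 1.498 (adjusted p = 0.0328). The Mug1 levels at the high dose, 5.96, 4.39, 3.46, 5.53 and 3.76, overlapped the unexposed 5.44 to 6.87. The Mug1 call was lost without litter 2, 3 or 5 of either group (adjusted p = 0.0596 to 0.0988), and the Azgp1 call without high-dose litter 2 or 5 or unexposed litter 1, 2, 4 or 5 (adjusted p = 0.0549 to 0.0854). Smaller falls at the high dose were those of the collectin Colec10 (-0.45), Hgfac (-0.39), Serpina10 (-0.34), which encodes the inhibitor that protein Z serves, Serpinf1 (-0.29) and angiotensinogen, Agt (-0.26). The Hgfac call was lost without litter 1 or 4 of that dose or unexposed litter 1, 2 or 3 (adjusted p = 0.0541 to 0.0721).

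Of 5 vitamin K cycle genes, 2 fell at the high dose, where 5.22% of all genes were called lower, and none was called at the low dose. At the high dose the other 3 had positive changes, and the median over the 5 was 0.005. Vkorc1, the enzyme that regenerates reduced vitamin K, fell by 0.25 (adjusted p = 0.0494) and Calu, which encodes calumenin, by 0.27 (adjusted p = 0.0125). The list of hepatocyte transcription factors and acute phase regulators held 18 genes tested in liver. At the low dose 2 rose and 1 fell, against 4.26% and 1.81% of all genes. At the high dose 2 rose and 2 fell, against 5.3% and 5.22%. All these counts are small.

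Il6ra encodes the receptor chain through which interleukin 6 drives acute phase genes. Its levels were 6.53, 6.71, 7.05, 6.79 and 6.66 without PFOS, 6.50, 6.01, 6.26, 6.16 and 6.09 at the low dose, and 6.21, 5.81, 6.03, 5.53 and 5.76 at the high dose. Both exposed groups lay below the unexposed litters, and Il6ra fell by 0.54 (adjusted p = 0.0161) and by 0.88 (adjusted p = 0.000223), to 54.4% of the unexposed mean at the high dose. Its liver change was below its lung change by 0.90 at the low dose (adjusted p = 0.00746) and by 1.14 at the high dose (adjusted p = 0.000306). Il1r1, the interleukin 1 receptor, fell by 0.36 at the high dose (adjusted p = 0.0252), a call lost without litter 4 of that dose or unexposed litter 2 or 4 (adjusted p = 0.0539 to 0.0661). Il6st, the partner chain of Il6ra, and Stat3, the factor downstream, had changes of 0.02 and -0.05 at the high dose, not called.

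Socs3, the feedback inhibitor of that pathway, rose at both doses. It measured 5.997 to 6.41 without PFOS, 6.58 to 7.26 at the low dose and 6.58 to 7.46 at the high dose, with rises of 0.67 (adjusted p = 0.0205) and 0.66 (adjusted p = 0.0166). The call at the low dose was lost without litter 2 or 5 of that dose or unexposed litter 2 (adjusted p = 0.0528 to 0.0583). Without unexposed litters 2, 3 and 5 the Socs3 calls were lost at both doses (adjusted p = 0.279 and 0.239), as were those of Il6ra at the low dose (0.221) and Lrg1 at the high dose (0.19). Cebpb, a transcription factor of acute phase genes, measured 8.02, 8.12, 8.20, 7.88 and 8.07 without PFOS and 8.67, 8.61, 8.63, 8.59 and 8.60 at the high dose. It rose by 0.36 at the low dose (adjusted p = 0.0393) and by 0.56 at the high dose (adjusted p = 0.00143), and its liver change exceeded its lung change by 0.75 at the high dose (adjusted p = 0.00214). The Cebpb call at the low dose was lost without litter 1 or 2 of that dose or unexposed litter 1, 2, 4 or 5 (adjusted p = 0.0605 to 0.0949).

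**Figure D5:**
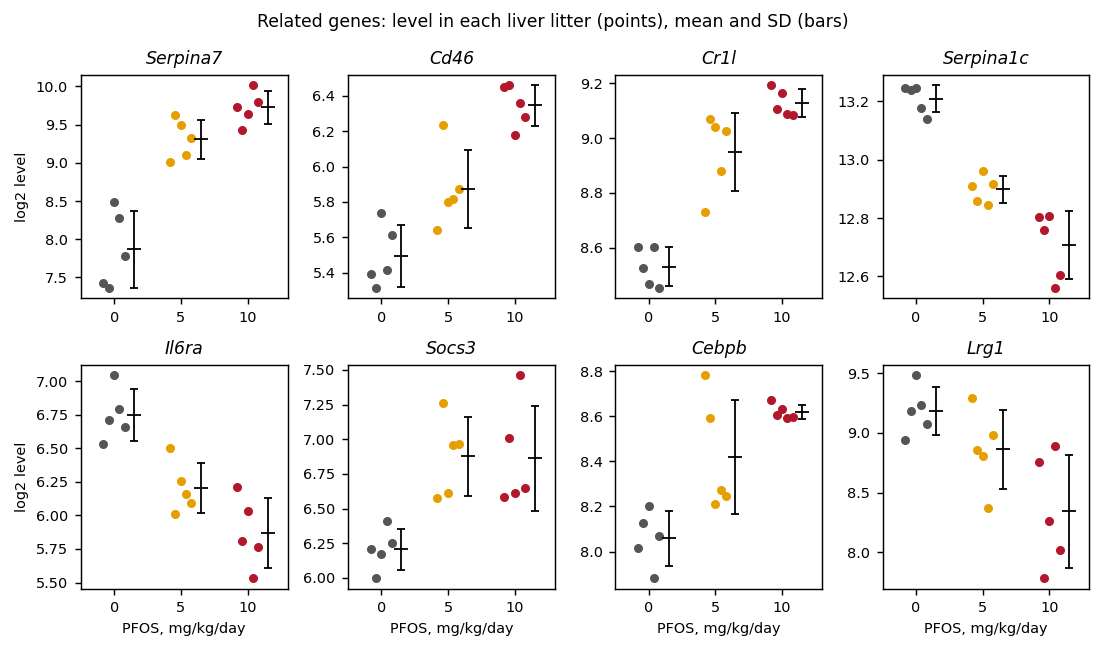
Log2 level in each fetal liver litter (points) at 0, 5 and 10 mg/kg/day PFOS for 8 related genes, with the mean and SD of 5 litters and a separate y axis per gene. Serpina7, Cd46, Cr1l, Socs3 and Cebpb are higher in the exposed groups, and Serpina1c, Il6ra and Lrg1 are lower at 10 mg/kg/day.

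Upstream windows were compared for patterns of liver and acute phase factors on both strands, in the 39 of 49 genes with a listed RefSeq promoter (250 bases, GRCm38.p6), 10 of them among the 12 called lower at the high dose. The C/EBP pattern TTGCNNAA occurred in 11 of 39 windows and in 9.56% of all 32851, in 2 of the 10 lower genes and 9 of the other 29. The short HNF1 pattern GTTAAT occurred in 10 of 39 and in 6.43% of all, in 3 of the 10 and 7 of the 29. The STAT pattern TTCNNNGAA occurred in 7 of 39 and in 7.02% of all, in 2 of the 10 (Itih4 and Pros1) and 5 of the 29. The TATA pattern TATAAA occurred in 4 of 39 and in 12.4% of all, in 1 of the 10 (Klkb1) and 3 of the 29. Of 7 patterns searched, the other 3, the full HNF1, HNF4 and DR1 patterns, occurred in none of the 39. These patterns can overlap within a window, and a match is a description of the letters only.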

How the data were processed

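Per the submitters' processing notes, the deposited log2 values are probe set levels made with RMA, which corrects background, normalizes between arrays and summarises each probe set. Neither the version of RMA nor the set of arrays it was run on is stated in the labels. RMA compresses changes of dim probe sets, and near the top of the range a signal can flatten. Of 45101 probe sets, 34945 had 1 gene symbol in the platform annotation, 932 several, 9160 none and 64 were controls. A gene was read from the brightest of its probe sets, and those with several symbols were left out. The number of arrays limits the precision.

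A linear model with a mean for each dose was fitted to each tissue's 15 arrays (limma 3.58.1, R 4.3.3), and p-values were adjusted over all genes tested (liver 13269, lung 12897). Differences of changes, and liver against lung, came from 1 fit of 30 arrays. Correlations used 100000 permutations, two-sided (numpy 2.4.6, scipy 1.17.1, pandas 2.3.3), and figures matplotlib 3.10.9. P-values are two-sided.

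The members, lists and tests were chosen with earlier results of these data known. Named genes are the members called in liver and the largest change of each role group, in lung at most 8 by unexposed level and size of change, and from the other lists at most 8 called genes per direction. Other genes in the text, such as Serpina6, F12 and Cym, were chosen after their values were seen. Litters of 1 number mostly did not deviate together across doses, and 6 of 30 pairs correlated best with their own number, so they were not paired. The highest correlation, 0.27, was that of lung litter 1 at 0 and at 5 mg/kg/day, the arrays that stood apart.

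The fit was tested on simulated data for liver 10 against 0 mg/kg/day over 13269 genes: of 50 genes changed by 0.3 it called 14, of 50 by 0.5 it called 39 and of 50 by 1 it called 47, with 4 unchanged genes called. Changes of 0.3 were therefore often missed in the simulation. It left 13069 of the 13269 genes unchanged, while 703 were called higher and 692 lower in the data. With fewer changed genes the adjustment is stricter, so the simulated rates do not carry over to the data. Alternatives were the filter, normalization, probe set rule, samples and spread model, a replicate block, a hepatocyte marker covariate in lung, and each litter left out. Leaving out both lung arrays that stood apart, and adjusting the lung correlations over all genes, were added after seeing the data. Promoters of 10 genes were not used here.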

Additional observations from a re-analysis of the deposited data

Results flagged for a closer look

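Over 117 groups of 5 litters tested, in which chance alone puts about 1 group in 20 past the limit, 10 held a litter far from the other 4. In liver, litter 1 at 5 mg/kg/day had an Mbl2 level of 8.71 against a mean of 9.47 in the other litters, and litter 4 at that dose an Hrg level of 11.05 against 11.50. Litter 1 at 10 mg/kg/day had an Itih4 level of 11.76 against 11.43, and unexposed litter 1 an Azgp1 level of 9.70 against 9.08. In lung, litter 4 at 5 mg/kg/day had a Serping1 level of 9.78 against 9.98.

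The other 5 came from both lung arrays that stood apart. Itih4 measured 9.36 in unexposed lung litter 1 against 6.02 in the others of its group, and 9.06 in lung litter 1 at 5 mg/kg/day against 6.13. Hpx measured 9.80 against 5.81 and 9.68 against 6.14 on the same arrays, and Itih1 6.12 against 4.79 on the second.

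Liver and lung changes differed, by a test of the difference itself in limma, for 5 genes. At 5 mg/kg/day the difference was -0.90 for Il6ra (adjusted p = 0.00746). At 10 mg/kg/day it was -1.14 for Il6ra (adjusted p = 0.000306), 0.73 for Cd46 (adjusted p = 0.000306), 0.75 for Cebpb (adjusted p = 0.00214), 0.48 for Cr1l (adjusted p = 0.006) and -0.32 for Pros1 (adjusted p = 0.0313). The Pros1 call was lost without both lung arrays that stood apart and without several single litters, as given above.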

How the results depend on the processing

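The 12 genes lower in liver at 10 mg/kg/day became 4 with both tissues in 1 fit, where Klkb1 and Pros1 kept their calls, 5 without control litters 2, 3 and 5, and 9 to 14 with single litters left out, 17 with the trended and robust spread and 16 with quantile normalization or the stricter filter. None rose except 1, Mbl1, without liver litter 5 at 10 mg/kg/day (0 to 1 over single litters). The 4 lower at 5 mg/kg/day became 1 with no filter, 0 with both tissues in 1 fit, 1 without control litters 2, 3 and 5, 6 with the trended and robust spread, and 1 to 5 with single litters left out. The 1 higher at 5 mg/kg/day became 0 without control litters 2, 3 and 5 and was 0 to 1 over single litters. Between 10 and 5 mg/kg/day, 0 to 1 were lower. The 1 difference between tissues at 10 mg/kg/day became 0 without both lung arrays that stood apart and 0 to 2 over single litters. The cause of these moves was not tested, except that a fit with fewer litters has less precision.

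With the replicate number as a block, 2 genes in place of 4 were lower at 5 mg/kg/day and 11 in place of 12 at 10. Labels do not say that a number pairs litters: deviations of same-numbered litters correlated at -0.31 to 0.27 over 30 pairs of doses, and 6 correlated best with their own number. Across tissues the 15 pairs correlated at 0.0015 to 0.35, and 12 of them over 0.1, and 13 correlated best with their own number, a hint from the data. With litter as a random block across tissues, the difference between tissues was called for 660 genes in place of 500 at 10 mg/kg/day and 336 in place of 260 at 5, and for 1 and 0 of the set as before (Pros1, adjusted p = 0.0165).

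Single changes that turned sign were uncalled. In liver at 5 mg/kg/day, over single litters left out, C4bp ran from -0.16 to 0.19, Hrg from -0.11 to 0.041 and Orm1 from -0.49 to 0.034. Without control litters 2, 3 and 5, Orm1 was 0.30 and Mug1 0.025. In lung at 5 mg/kg/day the hepatocyte covariate gave -0.028 for Fgg, -0.24 for Hpx and -0.36 for Itih4. With single lung litters left out, changes at 5 mg/kg/day ran from -0.47 to 1.04 for Hpx, -0.56 to 0.70 for Itih4, -0.42 to 0.076 for Ahsg and -0.0070 to 0.13 for Hp. At 10 mg/kg/day they ran from -0.88 to 0.27 for Hpx, -0.80 to 0.13 for Itih4, -0.026 to 0.040 for Serping1 and -0.050 to 0.15 for Hc. Serping1 was -0.0039 there with quantile normalization. Without both arrays that stood apart, Hc was -0.017, Hpx 0.27 and Itih4 0.13. Over all 15 lung arrays, 22 of 49 genes correlated positively with the hepatocyte markers, and 22 with Alb alone, after adjustment over all genes, against 0.363% of all genes each.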
